A study of Mus musculus with 36 samples.

Results

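Basal duct cells without tumor markers are the keratin-14 or keratin-5 expressing cells of the salivary duct wall that carried no transcript of the genes that mark the tumor or the myoepithelium. They were chosen cell by cell from Drop-seq tables of unique molecular identifiers (UMIs, counts of captured mRNA molecules). A barcode needed 100 or more genes, less than 15% of its UMIs from mitochondrial genes, at least 2 UMIs of Krt14 plus Krt5, at least 1 UMI among Krt15, Krt17, Trp63, Col17a1 and Itgb4, and none of Wif1, Syn3, Coch, Krt42, Myh11, Cnn1 or Actg2. This rule found 306 cells among the 23346 barcodes that passed the gene and mitochondrial limits, with between 1 and 38 per gland (median 10.5). All its genes are readouts of the same cells, so their levels are described below without a test.

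The glands were submandibular glands of C57BL/6 mice, 26 in all, dissociated, sorted as live single cells and fixed in methanol before droplet capture. Double-mutant glands (14, of which 7 at P40 and 7 at P90) carried a β-catenin gain-of-function allele and Bmpr1a loss-of-function alleles, and control glands (12, 6 at each stage) carried neither. K14-Cre and the Cre-inducible R26-EYFP reporter were present in both genotypes, so that the control glands also expressed the recombinase. Both sexes were in each group, and 4 further P70 glands, 2 of each genotype, had been measured by CITE-seq, which counts antibody tags together with RNA. Cre is driven by the keratin-14 promoter, which is active in basal cells, so the recombined population and the cells chosen here rest on the same gene. Whether each gland came from a different mouse is not stated in the labels, and p-values below measure the spread between glands.

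Basal cells form the outer layer of the excretory and striated ducts. They sit on the basement membrane through hemidesmosomes built on integrin α6β4 and type XVII collagen, fill their cytoplasm with keratin 5 and keratin 14 filaments, and depend on the transcription factor p63 (Trp63). In the salivary gland they serve as a reserve of progenitors for the duct, and they lie beside the myoepithelial cells, which share the basal keratins and add smooth muscle proteins. Activated β-catenin turns on target genes through TCF/LEF factors, and Bmpr1a is a receptor for bone morphogenetic proteins.

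In counts summed over glands, double-mutant glands gave more cells than control glands before the exclusions and a similar number after them. The 14 double-mutant glands held 12603 kept barcodes and the 12 control glands 10743. Of 737 cells with at least 2 keratin UMIs, 471 came from double-mutant and 266 from control glands. Of these, 530 also had a UMI of the second set, 338 of them from double-mutant and 192 from control glands. Per gland, cells that met both conditions made up a mean of 2.69% of kept cells in double-mutant and 1.73% in control glands (p = 0.122, permutation test). A UMI of a tumor marker was present in 42.3% of those 338 cells and in 8.33% of those 192. A myoepithelial UMI was present in 53 and 43 cells, respectively, and 163 double-mutant and 143 control cells remained. Members held a median of 1070.5 UMIs (range 218 to 16759) and 663.5 genes. Double-mutant members were shallower, with a median of 952 UMIs against 1231, and the shallowest group was double-mutant P90, where 19.4% of members reached 1000 UMIs, compared with 62.5% in double-mutant P40, 78.3% in control P40 and 51.8% in control P90.

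Krt14 was seen in 94.8% of members and Krt5 in 55.9%, and both keratins in 155 of the 306 cells. Among the second set, Krt17, a keratin of stressed and basal epithelium, was found in 72.5% of cells, the integrin subunit Itgb4 in 26.8%, Trp63 in 21.9%, Krt15 in 18.3% and Col17a1 in 17.97%. Exactly 1 of these 5 genes was seen in 171 members, 2 in 97 and more in 38. The gate was passed with exactly 2 keratin UMIs by 102 members (median 981.5 UMIs), whereas 167 cells that met every other condition had a single keratin UMI and stayed outside (median 742 UMIs). Per gland, on a scale of UMIs per 10000 over the members' summed counts, Krt14 stood at 19.4 ± 7.81 (SD, n = 6 control glands with at least 10 members) and 27.2 ± 14.1 (n = 9 double-mutant glands). Krt17 stood at 10.1 ± 6.38 and 21.0 ± 15.9, and Trp63 at 1.34 ± 0.885 and 3.48 ± 1.52. Krt5, Itgb4 and Col17a1 stood at 5.60, 1.69 and 0.736 in control and at 11.7, 3.85 and 3.06 in double-mutant glands. Krt15 went the other way, at 3.16 ± 2.26 and 1.99 ± 2.80. Mean Krt14 was 39.9 at P90 and 17.1 at P40 in double-mutant glands, and 24.4 and 14.3 in control glands. Double-mutant P90 members were the shallowest, and how far the floor of 2 keratin UMIs raises levels in shallow cells was not tested.

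Markers of endothelial cells, pericytes and immune cells were low but not absent. The fibroblast list was higher than in the other cells through decorin, and markers of acinar and luminal duct cells were widespread. Of the 6 endothelial markers all were detected, with a summed level of 0 to 4.68 UMIs per 10000 in the control glands (median 0.329) and 0 to 1.47 in the double-mutant glands (median 0). Of the 4 pericyte markers, Rgs5 and Pdgfrb were at 0. Of the fibroblast list, decorin (Dcn) gave 341 UMIs in control and 124 in double-mutant members, whereas Col1a1, Col1a2 and Lum were at 0 in control members and had 2, 8 and 2 UMIs in double-mutant members. Col3a1 had 1 and 9 UMIs. The summed fibroblast list had a median of 13.3 in control and 5.50 in double-mutant glands, compared with 2.54 in the other cells. Without decorin it reached 0.426 and 5.13. All 6 immune markers were detected, with summed levels up to 18.3 in control and 17.1 in double-mutant glands. Myoepithelial Acta2, which the rule did not use, had a UMI in 3.27% of members. The summed acinar markers stood at 19.9 to 738 UMIs per 10000 in control glands (median 81.2) and at 5.86 to 673 in double-mutant glands (median 42.9), compared with 106.1 to 1050.0 in the other cells (median 656). The summed luminal duct markers stood at 14.3 to 474 (median 88.8) and 6.30 to 376 (median 26.4), compared with 16.99 to 633 (median 162). Prol1, an acinar secretory protein gene, was found in 67.3% of members, and also in 59.3% of cells with at least 2 endothelial UMIs and no basal keratin, which should lack it (their median depth was 955 UMIs in control glands and 676 in double-mutant glands). The members' secretory transcripts are not read as their own expression. Cell aggregates had been gated out at the sort, but no doublet caller was run, and the part of cells caught together in a droplet was not tested. No member's barcode sequence occurred in another library, although 14 sequences were shared between libraries over all kept cells.

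Sfn, Ly6d and Smoc2 had the largest ratios of members to the other cells of their glands. The values that follow describe the cells the rule selected and carry no test. Stratifin (Sfn), a 14-3-3 protein of keratinocytes, stood at 13.5 UMIs per 10000 in members and 0.718 in the other cells of the 15 glands with at least 10 members, a mean log2 ratio of 3.48 ± 0.72 (SD; pseudocount 0.5). Ly6d, a GPI-anchored protein of squamous cells, stood at 15.6 and 1.09. Smoc2, a secreted matricellular protein, stood at 5.66 and 0.302. The adhesion molecule Icam1 stood at 5.51 and 0.639, and it was higher in members in 15 of 15 glands. The cyclin Ccnd2 stood at 5.002 and 0.581, Sox4, a transcription factor of progenitor cells, at 8.23 and 1.26, and Id3, a target of bone morphogenetic proteins, at 11.6 and 1.77. Of the 25 genes with the largest ratios, 16 were higher in members in every gland.

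**Figure D1:**
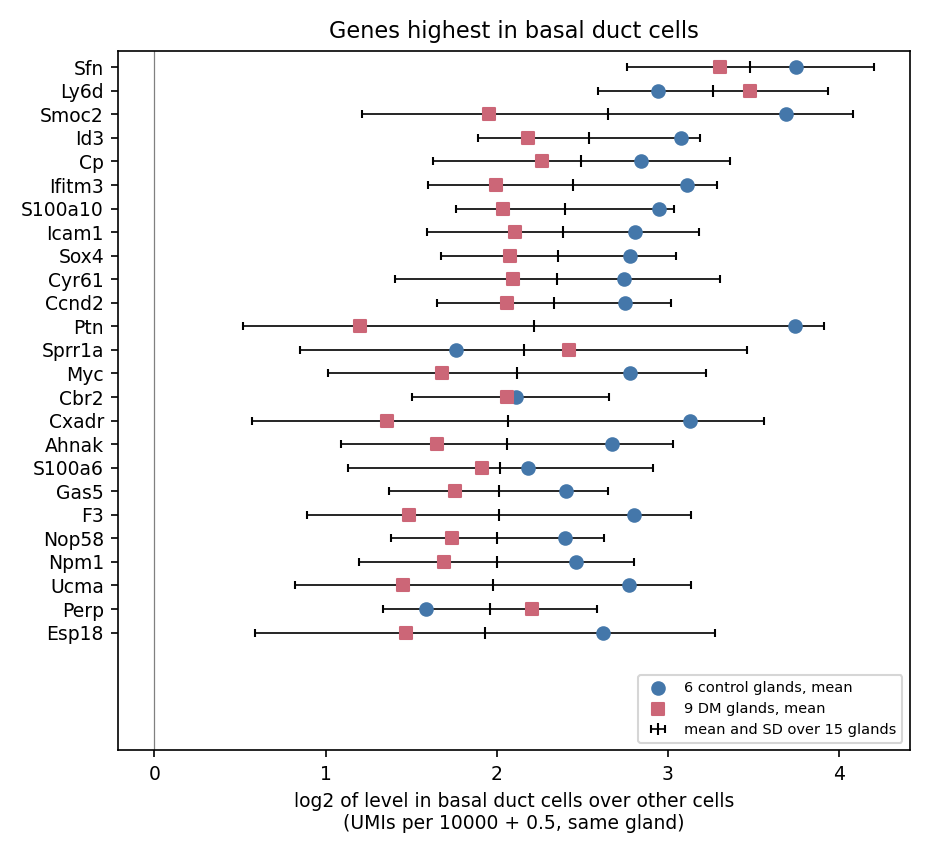
Log2 ratio of the members' level to that of the other cells of the same gland (UMIs per 10000, pseudocount 0.5) for the 25 genes with the largest ratios. Circles are means of 6 control glands, squares are means of 9 double-mutant (DM) glands, and black ticks with bars are the mean and SD over all 15 glands. Sfn and Ly6d led the order, and the means of Smoc2 and Ptn lay lower in double-mutant than in control glands.

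Most genes chosen by their level in members, those of basal cells included, had higher levels there than in the other cells. Among the genes at 1 UMI per 10000 or more in members, 1412 of 1533 were above the other cells, with a median log2 ratio of 0.70, which is the level against which lists are read. This limit was set on members alone and favors genes that are high in them. Secretory transcripts also took up more of the other cells' UMIs, with Spt1 at 2142 UMIs per 10000 there and 612 in members. The counts of higher genes are thus a description, and what part of them comes from these 2 features was not tested. All 11 genes at that level among basal and progenitor transcription factors were higher (median 1.18), as were 10 of 10 hemidesmosome and basement membrane genes (median 1.11), 6 of 6 desmosome genes (median 1.15) and 12 of 12 surface proteins of basal epithelium (median 1.34). Lists of other kinds lay as high, with 2 of 2 Notch and Egf-family genes (median 1.55), 5 of 5 proliferation genes (1.33), 4 of 4 Wnt genes (1.19), 9 of 9 detoxification and duct enzymes (1.03) and 7 of 7 bone morphogenetic protein and TGF-β genes (1.02), and 19 of 20 immediate early and heat shock genes were higher (0.86). The 48 nuclear genes of oxidative phosphorylation were nearer to the other cells, with 40 higher and a median of 0.17. The lowest ratios were those of secretory products, led by the demilune gene Dcpp3 at -3.65 and by Prol1 at -3.27. Of the proliferation genes, Mki67 had a UMI in 4.90% and Top2a in 5.23% of members.

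The same rule applied to RNA of the CITE-seq glands found 5 of 672 cells in the control male gland, 10 of 728 in the control female gland, 1 of 638 in a double-mutant gland and 0 of 497 in the other, where a count of 0 allows a share of up to 0.604%. The antibody panel gives a protein readout that the rule did not use. CD104, the integrin β4 protein whose mRNA is in the rule, took a median of 14.5% and 9.24% of the antibody counts of members in the control glands, compared with 1.23% and 1.122% in the other cells. CD54, the protein of Icam1, took 5.60% and 3.92%, compared with 0.542% and 0.411%. CD29, integrin β1, took 12.3% and 10.4% against 4.69% and 3.79%, and CD24 took 3.51% and 3.01% against 1.30% and 1.38%. Ly6A_E, which binds the proteins of Ly6a and Ly6e, took 1.10% and 1.53% against 0.476% and 0.431%. The isotype antibody control_AH_IgG took 0.878% and 1.24% in members and 0.886% and 0.854% in other cells. With 2 control glands and 15 cells these values are a description, and the double-mutant side held 1 cell.

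The share of basal duct cells without tumor markers among all kept cells was compared between genotypes. In double-mutant glands it was lowest at 0.147%, had a median of 1.18% and reached 2.50% (mean 1.27 ± 0.613, SD, n = 14). In control glands it was lowest at 0.105%, had a median of 1.06% and reached 3.50% (mean 1.28 ± 1.116, n = 12). The groups overlapped over nearly their whole range. The means differed by -0.0105 percentage points (p = 0.976, two-sided permutation test of 100000 resamples). Within each sex, a split made after the shares were seen, the differences had opposite signs, with 0.726 points in male glands (p = 0.0390, adjusted p = 0.0779 over the 2 sexes, exact permutation test) and -0.766 points in female glands (p = 0.105, adjusted p = 0.105, exact permutation test). A binomial mixed-effects model with sex and stage gave an odds ratio of 1.15 for double-mutant against control, with a 95% interval of 0.698 to 1.89 (p = 0.586). A cell with a tumor marker UMI is not a member, and such UMIs were more frequent in double-mutant glands, so this comparison covers only basal cells in which no such UMI was captured. Within the batches that held both genotypes the difference was 0.156 points (p = 0.686, permutation test).

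**Figure D2:**
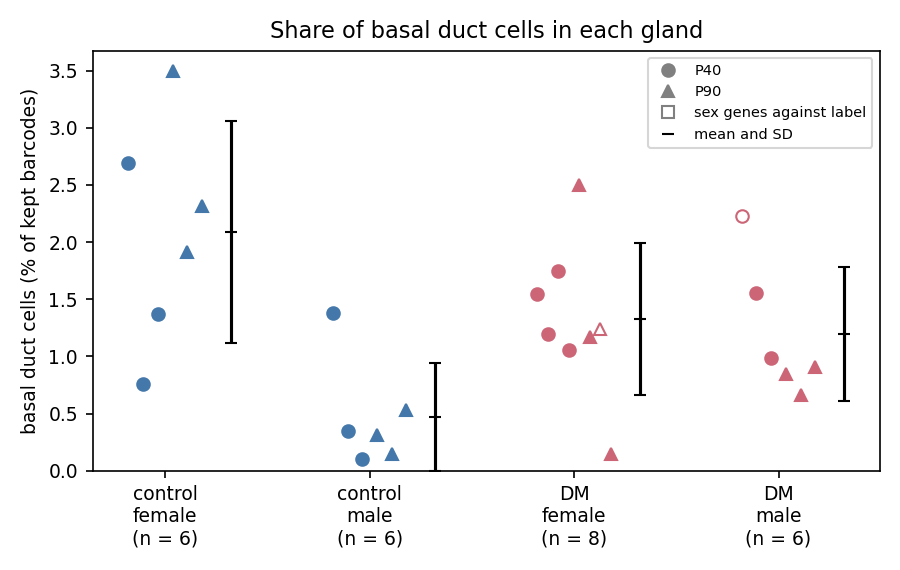
Share of kept cells that were basal duct cells without tumor markers, in percent, for each of the 26 glands by genotype and labelled sex (DM, double-mutant). Circles are P40 and triangles P90 glands, open symbols are glands whose sex-linked genes went against the label, and bars are the mean and SD; control female glands lie between 0.758% and 3.50% and control male glands between 0.105% and 1.38%, while double-mutant glands of both sexes overlap.

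Among control glands the share differed between the sexes, a comparison that was chosen after the shares were seen. Female control glands held 2.09 ± 0.972% (SD, n = 6, range 0.758 to 3.50) and male control glands 0.470 ± 0.470% (n = 6, range 0.105 to 1.38). The difference of 1.62 points had p = 0.00649 in an exact two-sided permutation test, and an adjusted p of 0.0130 (Benjamini-Hochberg) over the 2 genotypes. In double-mutant glands the female mean was 1.33 ± 0.666% (n = 8) and the male mean 1.196 ± 0.588% (n = 6), a difference of 0.130 points (p = 0.712, exact permutation test). The sexes as labelled were used, and in 2 double-mutant libraries, labelled male P40 replicate 1 and female P90 replicate 5, the sex-linked transcripts went against the label; without them the double-mutant difference was 0.348 points (p = 0.357, exact permutation test). The difference between genotypes in the sex difference was 1.49 points (p = 0.00852, permutation of genotype within sex), 1.27 points without those libraries (p = 0.0229, permutation test) and 0.310 points when each cell was thinned to 500 UMIs (p = 0.467, permutation test). Male control glands had deeper other cells, with a mean of the gland medians of 2791 UMIs against 1735 in female control glands. After thinning, the control difference was 0.762 points (p = 0.00866, exact permutation test). Within the 3 batches that held both sexes, with 4 female and 3 male control glands, it was 1.35 points, and p = 0.0833 was the smallest that the 12 arrangements allow in this exact permutation test.

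Gene levels were compared between genotypes in the 15 glands with at least 10 members, 6 control (5 female, 1 male) and 9 double-mutant (6 female, 3 male), by summing the members' UMIs per gland and fitting genotype with sex and stage by edgeR's quasi-likelihood test. Summed UMIs ranged from 20635 to 42956 per control gland and from 6350 to 42655 per double-mutant gland. Of 377 genes that passed the filter on low counts, 4 were higher and 0 lower in double-mutant members at a Benjamini-Hochberg adjusted p under 0.05, or 1.06% of the genes tested, and 56 had an unadjusted p under 0.05. The count varied with the method, with 18 called by DESeq2 (14 higher, 4 lower), 22 by edgeR without the filter (11 and 11) and 2 to 13 with a gland left out. The 4 genes were Ly6a, Timp3, Fxyd3 and Ly6d. The median log2 fold change over all genes tested was -0.05. Ly6a and Timp3 passed the filter through double-mutant glands only, 7 and 6 of which reached the filter's level of 3.42 UMIs per 10000, compared with 0 control glands.

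Ly6a, the gene of the surface antigen Sca-1 used to enrich progenitor cells in several tissues, rose in double-mutant members. In control glands its level was lowest at 0.318 UMIs per 10000, had a median of 0.592 and reached 1.96, and in double-mutant glands it was lowest at 2.08, had a median of 5.50 and reached 10.5. The 2 groups did not overlap. The log2 fold change was 2.82 (SE 0.45, edgeR adjusted p = 0.00249). A Ly6a UMI was found in 61 of the 163 double-mutant members (37.4%) and in 15 of the 143 control members (10.5%). Over glands with at least 5 members, the share was 20% to 63.6% in 12 double-mutant glands and 0% to 17.4% in 7 control glands. In glands with 1 to 4 members it was 0% to 50% in 5 control glands, all male, and 50% and 100% in 2 double-mutant glands. The members of double-mutant glands were the shallower ones, and when each cell was thinned to 500 UMIs a Ly6a UMI remained in 20.6% of 136 double-mutant members (95% exact binomial interval 14.1 to 28.4) and in 4.96% of 141 control members (2.02 to 9.96), with 27 and 2 shallower cells left out. These intervals cover counting error only, and cells of a gland share their library. In the gene fit with the same 377 genes, Ly6a stood at 2.93 in thinned members (12 glands, edgeR adjusted p = 0.0409) and at 2.09 in members with at least 1000 UMIs (7 glands, edgeR adjusted p = 0.891). With genes filtered anew, no gene was called in either set (15 of 110 and 18 of 375 at an unadjusted p under 0.05), and Ly6a did not pass the filter.

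**Figure D3:**
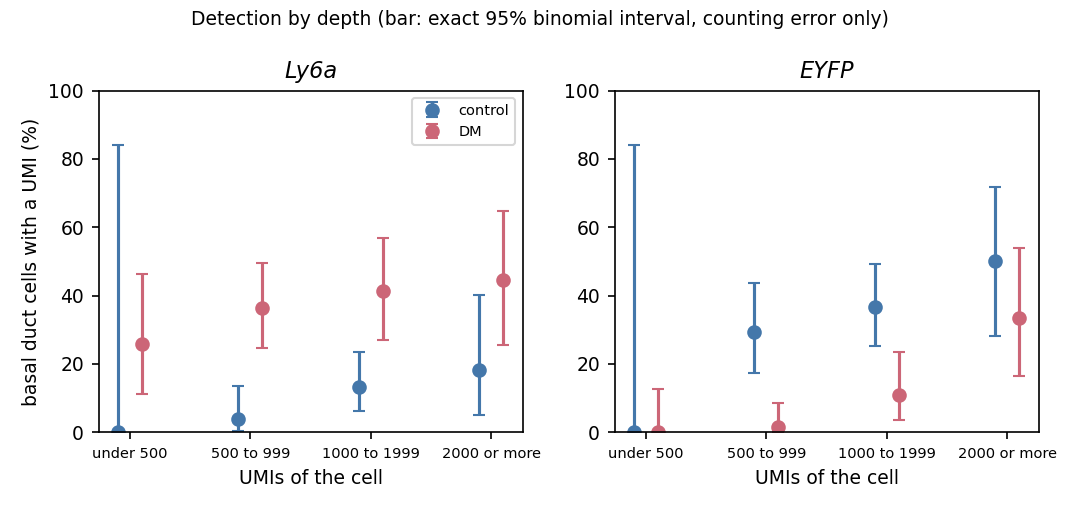
Percent of members with at least 1 UMI of Ly6a (left) and of EYFP (right) by the cell's total UMIs, for control and double-mutant members, with exact 95% binomial intervals that cover counting error only. For Ly6a the double-mutant (DM) percentages lie above those of control members in each depth class, with intervals that overlap in some, from 36.5% against 3.92% between 500 and 1000 UMIs to 44.4% against 18.2% in the deepest class.

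Ly6a is also a transcript of endothelial cells, and 54.9% of the endothelial comparison cells carried it. The endothelial markers gave 25 UMIs in double-mutant and 16 in control members, and 8 of 163 and 6 of 143 members carried one. Among members with no endothelial marker UMI, Ly6a was present in 36.1% of 155 double-mutant and 10.2% of 137 control cells. Among members with one, it was present in 62.5% of 8 double-mutant and 16.7% of 6 control cells. At these depths a cell without a marker UMI can still hold endothelial RNA, and how much it contributed was not tested. In the other cells of the glands, Ly6a was found in 14.3% (double-mutant) and 9.32% (control).

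Timp3, a matrix-bound inhibitor of metalloproteinases, rose as well. Its level was lowest at 0.318, with a median of 0.522 and a highest value of 1.37 in control glands, and lowest at 1.17, with a median of 4.38 and a highest value of 35.8 in double-mutant glands. The ranges overlapped slightly, and the highest value came from P90 replicate 5, a library whose sex transcripts went against its label. The log2 fold change was 3.85 (SE 0.70, edgeR adjusted p = 0.00709). Without that library and the other one of this kind, with the same 377 genes tested, it was 2.89 (edgeR adjusted p = 0.00559). Among members with no endothelial UMI, a Timp3 UMI was found in 28.4% of double-mutant and 9.49% of control cells, and 50.3% of the endothelial comparison cells had one. Among members with an endothelial UMI, it was found in 6 of 8 double-mutant and 0 of 6 control cells. The part of endothelial RNA in the Timp3 difference was not tested.

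Fxyd3, a regulator of the sodium-potassium pump, and Ly6d rose by a smaller amount, and the call of Ly6d was lost in 9 of 15 fits that left out a gland. Fxyd3 was lowest at 2.98, with a median of 4.62 and a highest value of 4.89 in control glands, and lowest at 6.33, with a median of 8.98 and a highest value of 17.3 in double-mutant glands. The groups did not overlap, and the log2 fold change was 1.28 (SE 0.26, edgeR adjusted p = 0.0155). Ly6d was lowest at 5.08, with a median of 9.85 and a highest value of 11.7 in control glands, and lowest at 7.71, with a median of 17.4 and a highest value of 34.1 in double-mutant glands. The groups overlapped, and the log2 fold change was 1.15 (SE 0.27, edgeR adjusted p = 0.0405). A UMI of Ly6d was found in 60.5% of members and 3.14% of endothelial comparison cells.

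**Figure D4:**
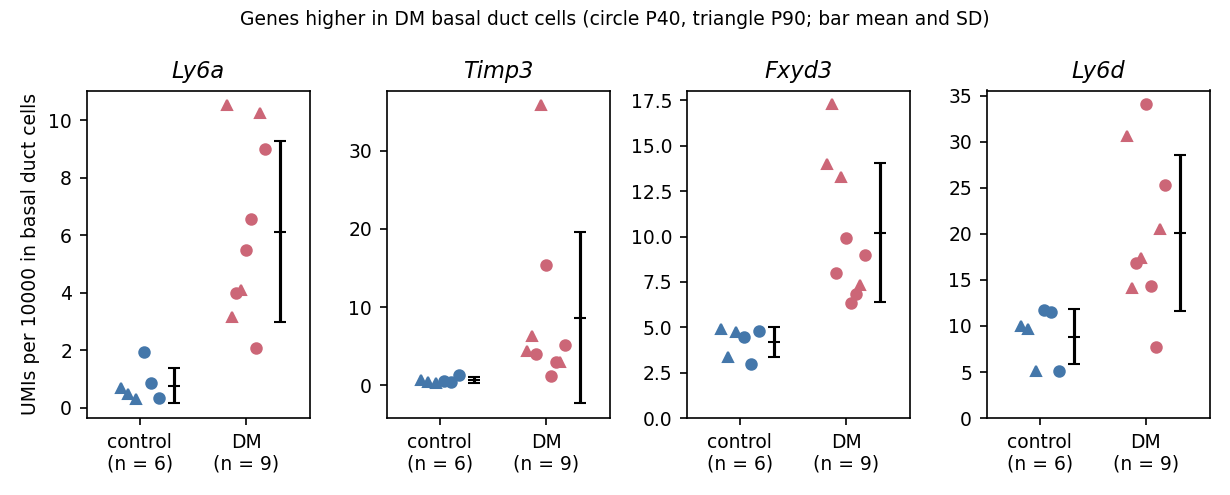
Levels of Ly6a, Timp3, Fxyd3 and Ly6d in basal duct cells without tumor markers, in UMIs per 10000 over the members' summed counts, 1 point per gland for 6 control and 9 double-mutant glands. Circles are P40 and triangles P90 glands, and the black bar beside each group is the mean and SD; double-mutant glands lie above all control glands for Ly6a and Fxyd3, and the groups overlap for Timp3 and Ly6d.

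Batches 9 and 12 held glands of both genotypes with enough members. In batch 9, Ly6a was 3.15 in the double-mutant gland and 0.318 in the control gland, Timp3 6.30 and 0.318, Fxyd3 17.3 and 4.76, and Ly6d 14.2 and 5.08. In batch 12, the 2 double-mutant glands had Ly6a at 2.08 and 10.3 and the 2 control glands at 1.96 and 0.851. Timp3 there was 2.96 and 2.93 against 0.559 and 0.426, and Fxyd3 6.82 and 7.33 against 4.47 and 2.98, whereas Ly6d was 7.71 and 20.5 against 11.7 and 11.5. Timp3 in the other cells was 6.90 against 1.07 in batch 9, and 0.980 and 1.33 against 0.848 and 1.28 in batch 12. With batch as a term in the fit no gene was called (20 of 377 at an unadjusted p under 0.05), and Ly6a stood at 1.98 (edgeR adjusted p = 0.829), so genotype and batch were separated by few glands. In the P40 glands alone no gene was called, with 28 of 440 at an unadjusted p under 0.05.

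For 2 of the 4 genes the promoter was at hand, in RefSeq's annotation of GRCm38.p6; Ly6a and Ly6d had no entry. The sequences are shown because the double-mutant allele activates β-catenin, whose partners TCF and LEF bind the core CTTTGA, searched here on both strands (TCAAAG on the other) and printed in capitals. The Timp3 window lies at chr10:86300162-86300411 on the plus strand, the 250 bases before the start, and holds no match. The Fxyd3 window lies at chr7:31076698-31076947 on the minus strand and holds 1 match, 206 bases before the start. A match occurred in 13.8% of all 32851 promoter windows of that length, and a match is a description of the letters only.
Timp3: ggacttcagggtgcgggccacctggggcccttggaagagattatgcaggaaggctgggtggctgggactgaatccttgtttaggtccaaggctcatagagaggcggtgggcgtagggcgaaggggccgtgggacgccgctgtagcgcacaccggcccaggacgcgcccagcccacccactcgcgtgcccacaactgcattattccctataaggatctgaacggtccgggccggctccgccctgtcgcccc
Fxyd3: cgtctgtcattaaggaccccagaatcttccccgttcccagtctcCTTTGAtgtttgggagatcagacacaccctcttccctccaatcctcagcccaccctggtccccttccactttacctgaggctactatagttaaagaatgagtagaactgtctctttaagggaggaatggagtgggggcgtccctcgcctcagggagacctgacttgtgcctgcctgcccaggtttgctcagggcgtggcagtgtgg

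Most genes of the study's themes were too low to test in these shallow sums. Of the 25 gene lists, which include markers of other cells, the 40-gene Wnt list had 1 testable gene, Myc, at -0.85 (SE 0.46, edgeR adjusted p = 0.406), and the proliferation and hemidesmosome lists also had 1 each. Neither Axin2, in 3.07% of double-mutant and 2.80% of control members, nor Lef1, in 3.68% and 9.79%, passed the filter. Of the bone morphogenetic protein and TGF-β list, Id1, Id2 and Id3 were tested and stood at -0.18, 0.01 and 0.11, with 0 of 3 called (edgeR adjusted p from 0.888 to 0.989). For Id3 the SE was 0.31.

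Of the 7 testable surface proteins of basal epithelium, 2 rose (Ly6a and Ly6d), compared with 1.06% of all genes tested, and the list median was -0.07 against -0.05 over all genes. Of the 5 matrix genes tested, 1 rose (Timp3), with a median of 0.30. Over all 377 genes tested, 171 values were positive and 206 negative. Both lists were assembled with earlier results of these data known. All 4 basal transcription factors tested had positive values (median 0.57) and 0 of 4 were called, led by Sox9, a factor of duct progenitors, at 1.33 (SE 0.38, edgeR adjusted p = 0.0921). The 3 desmosome genes were positive as well, with a median of 0.84, and Perp, a desmosome protein regulated by p63, stood at 0.84 (SE 0.35, edgeR adjusted p = 0.273). Of the 17 immediate early and heat shock genes, 13 were positive with a median of 0.33 and 0 were called; Egr1 stood at 0.81 (SE 0.23) and the small heat shock protein gene Hspb1 at 1.88 (SE 0.55), with edgeR adjusted p of 0.0921 and 0.0948. Of the 21 nuclear oxidative phosphorylation genes, 14 were negative with a median of -0.20 and 0 were called. The 4 luminal duct markers tested were negative with a median of -0.58 and 0 called, and Krt8 stood at -0.77 (SE 0.48, edgeR adjusted p = 0.478).

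Krt6a, S100a6, decorin and Smoc2 had adjusted p between 0.0692 and 0.0818 and did not pass. Krt6a, a keratin of activated and squamous epithelium, was at 0 to 0.931 in control glands and at 0 to 22.5 in double-mutant glands, with medians of 0 and 5.86, and its log2 fold change was 4.12 (SE 1.04, edgeR adjusted p = 0.0692). S100a6, a calcium-binding protein of proliferating cells, had a median of 4.39 in control and 16.1 in double-mutant glands and a log2 fold change of 2.06 (SE 0.54, edgeR adjusted p = 0.0751). Decorin had medians of 13.3 and 5.50 and a log2 fold change of -1.31 (SE 0.35, edgeR adjusted p = 0.0751). Smoc2 stood at -1.31 (SE 0.35, edgeR adjusted p = 0.0818). Hbegf, a ligand of the EGF receptor and the testable gene of the Notch and Egf-family list, had medians of 4.44 and 2.93 and stood at -0.90 (SE 0.38, edgeR adjusted p = 0.273).

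Age and sex were compared in the same fit. For P90 against P40, 0 of 377 genes passed with edgeR, 44 had an unadjusted p under 0.05, DESeq2 called 19, and edgeR without the filter on low counts called 24. Among control glands the stages were processed in different batches, so stage and batch cannot be told apart there. For male against female, 0 of 377 passed with edgeR, 17 had an unadjusted p under 0.05, DESeq2 called 0, and edgeR without the filter called 11, with 4 male-labelled glands in the fit, 1 of them a control.

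Whether the genotype difference changed with stage was tested as an interaction, and 2 of 377 genes (0.531%) had a lower difference at P90 than at P40. The first was the gene a, which encodes agouti signaling protein. Its level was 11.6, 16.3 and 27.3 in the 3 control P90 glands and 0, 0, 0.876 and 1.57 in the 4 double-mutant P90 glands. At P40 it was 1.37, 2.13 and 8.95 in control and 2.08 to 7.38 in double-mutant glands. The P90 groups were apart and the P40 groups overlapped, and the interaction was -4.91 (SE 0.88, edgeR adjusted p = 0.0119). A UMI of a was found in 32.03% of members and in 1.57% of endothelial comparison cells. Members of double-mutant P90 glands were also the shallowest.

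The second was Klk1, the tissue kallikrein of the striated duct, with an interaction of -8.78 (SE 1.73, edgeR adjusted p = 0.0180). Its level was 92.6, 99.2 and 448 in control P90 glands and 1.57, 4.09, 5.25 and 8.80 in double-mutant P90 glands. At P40 it was 5.46 to 22.4 (median 15.8) in control and 3.53 to 318 (median 174) in double-mutant glands. The genotype difference was 3.13 at P40 (SE 1.16, edgeR adjusted p = 0.709) and -5.65 at P90 (SE 1.26). In the thinned cells, 44.0% of control members and 55.4% of control endothelial comparison cells had a Klk1 UMI, so in control glands Klk1 in members is read as background. Without the 2 libraries whose sex transcripts went against the label, both interactions had an edgeR adjusted p of 0.0653 and 0 genes were called.

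Fitted within each stage, 0 of 377 genes were called at P40, where 22 had an unadjusted p under 0.05, and 9 (2.39%) at P90. At P90, 5 genes rose: Timp3 by 4.93 on the log2 scale (SE 0.96), S100a6 by 3.75 (SE 0.61), Ly6a by 3.68 (SE 0.68), the kinase gene Sgk1 by 3.05 (SE 0.62) and Fxyd3 by 1.73 (SE 0.36). At P90, 4 genes fell: Smoc2 at -2.60 (SE 0.55), a at -4.68 (SE 0.71), and the kallikreins Klk1 at -5.65 (SE 1.26) and Klk1b26 at -7.21 (SE 1.85). At P40 the same quantities were 2.24 (SE 0.55) for Ly6a, 2.69 (SE 0.92) for Timp3 and 0.84 (SE 0.52) for S100a6. The interaction passed for a and Klk1 alone, so for the other genes a difference between the stages was not shown. Over both stages, the other cells had S100a6 at 0.708 in control and 7.21 in double-mutant glands, and Klk1b26 at 33.7 and 9.41. How much of Klk1b26 in members is background was not tested. All 3 control P90 glands in the fit were labelled female, as were 3 of the 4 double-mutant P90 glands.

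A gene can differ between genotypes in members because it differs in every cell of the gland, so the genotype difference in members was also set against that in the other cells of the same glands, with the gland as a block. Of 6363 genes tested with edgeR, 1 had a larger and 14 a smaller difference in members, or 0.236%, and the median over all genes was -0.20. With DESeq2, 3 genes passed, Ptn, Dcn and Mgp.

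Pleiotrophin (Ptn), a heparin-binding growth factor, was lowest at 7.17, with a median of 8.65 and a highest value of 22.8, in members of control glands, and lowest at 1.19, with a median of 4.92 and a highest value of 11.2, in members of double-mutant glands. The ranges overlapped. In the other cells it stood at 0.345 in control and 2.63 in double-mutant glands, and the difference of the differences was -3.20 (SE 0.41, edgeR adjusted p = 1.86e-11). In members alone, Ptn stood at -1.07 (SE 0.37, edgeR adjusted p = 0.167).

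Decorin (Dcn) stood at 16.6 ± 10.02 (SD, n = 6) in control members and 5.17 ± 3.18 (n = 9) in double-mutant members, and in the other cells at 0.910 and 3.20. The difference of the differences was -3.06 (SE 0.39, edgeR adjusted p = 1.86e-11). In control members the fibroblast collagens Col1a1 and Col1a2 were at 0 and Col3a1 had 1 UMI, beside 341 decorin UMIs. Matrix Gla protein (Mgp), an inhibitor of calcification, stood at 1.07 ± 0.686 and 0.796 ± 0.922 in members and at 0.232 and 2.50 in the other cells (-3.53, SE 0.66, edgeR adjusted p = 0.000195). For all 3 genes the other cells of double-mutant glands, which include stroma and tumor cells, were higher than those of control glands, and how much the makeup of these cells contributed was not tested. Basal cells with a tumor marker UMI are also among the other cells. The lower Ptn and decorin levels therefore describe only basal cells in which no such UMI was captured, and the levels in tumor-marked basal cells are given below.

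**Figure D5:**
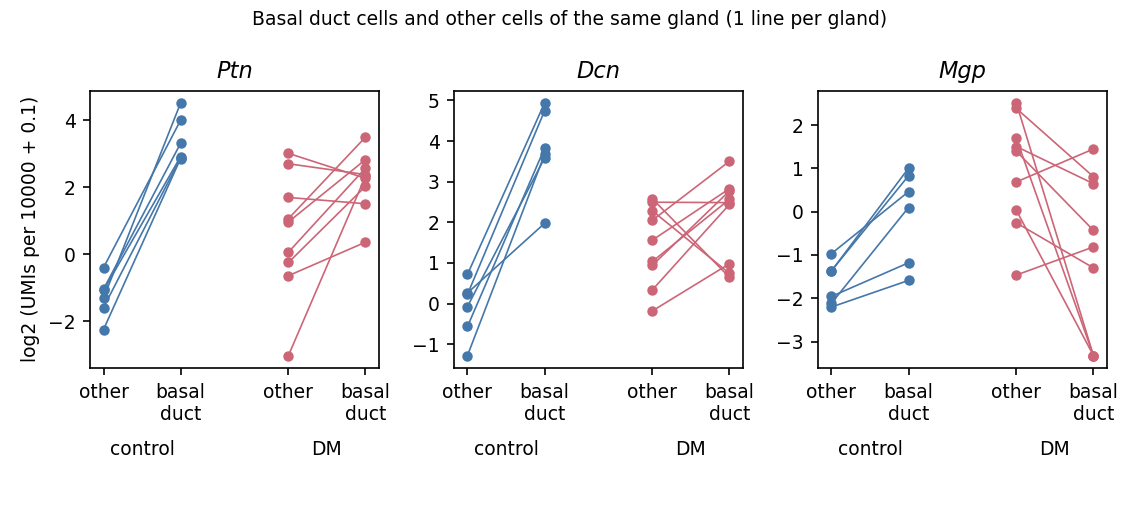
Levels of Ptn, Dcn and Mgp in members and in the other cells of the same gland, as log2 of UMIs per 10000 plus 0.1, with 1 line per gland for 6 control and 9 double-mutant glands. Ptn and Dcn were higher in members than in other cells in 6 of 6 control and 6 of 9 double-mutant (DM) glands each, and Mgp in 6 of 6 control and 2 of 9 double-mutant glands.

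The heat shock gene Hspa1a was the gene with the larger difference in members, at 0.986 ± 0.723 in control and 4.80 ± 3.58 in double-mutant members, compared with 3.37 and 2.95 in the other cells (2.46, SE 0.51, edgeR adjusted p = 0.00127). Ren1 (-5.14, edgeR adjusted p = 0.00053), the renin gene of the granular duct, and Hbb-bs (-4.73, edgeR adjusted p = 0.000755), a hemoglobin gene of red cells, rested on few glands. Ren1 was at 2.33 and 7.30 in 2 control P90 glands, at 0.703 in double-mutant P40 replicate 3 and at 0 in members of the other 12. Its value was -4.38 without control P90 replicate 6 (edgeR adjusted p = 0.1) and -6.29 without double-mutant P40 replicate 3 (edgeR adjusted p = 0.269). Hbb-bs reached 232 in control P90 replicate 2, and without that gland its value was 0.99 (edgeR adjusted p = 0.927). Of the 4 genes called between genotypes in members, none was among these 15.

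Basal cells of double-mutant glands that carried a tumor marker UMI are the nearest neighbors of these cells. The comparison is given without a test, because the excluded markers define the neighbors. Summed over 122 double-mutant basal cells with a tumor marker UMI, Timp3 stood at 25.6 UMIs per 10000, against 6.51 in double-mutant members and 0.727 in control members. Fxyd3 stood at 16.0, 8.58 and 4.73, and S100a6 at 33.2, 18.5 and 6.09. Ly6a stood at 4.62, 6.33 and 0.954. Ly6d went the other way, with 6.46 in the tumor-marked cells, 19.1 in double-mutant and 9.04 in control members. The luminal keratins Krt18 and Krt7 and the tight junction gene Cldn4 were at 3.23, 1.22 and 3.45 in tumor-marked cells, 13.1, 4.99 and 11.99 in double-mutant members and 12.1, 5.14 and 10.3 in control members. Ctgf, a matricellular target of YAP signaling, stood at 9.80, 1.71 and 0.727, and Axin2, a feedback inhibitor and target of Wnt signaling, at 1.34, 0.314 and 0.182.

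Transcripts of the EYFP reporter, which Cre switches on in both genotypes, were found in 35.7% of control members (51 cells) and in 9.20% of double-mutant members (15 cells). Double-mutant glands differed among themselves. EYFP was found in 45.5% and 40% of members of P40 replicates 2 and 3 and in 0% to 15.8% in the other P40 glands. In the 7 P90 glands, which held the shallowest members, it was found in 0%. The endothelial comparison cells, which K14-Cre should not mark, had EYFP in 21.3% (control) and 7.15% (double-mutant). After thinning to 500 UMIs, EYFP was found in 19.9% of control members (95% exact binomial interval 13.6 to 27.4) and 8.26% of control endothelial cells (5.12 to 12.5), and in 2.94% of double-mutant members (0.807 to 7.36) and 3.85% of double-mutant endothelial cells (2.17 to 6.26). The intervals were apart in control glands and overlapped in double-mutant glands, but they pool cells over glands and cover counting error only. Without thinning, EYFP was found in 10.5% to 68.4% of the members of control glands with at least 10 members. In the fit against the other cells EYFP stood at -0.65 (edgeR adjusted p = 0.827). Cre itself gave 1 UMI in all members.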

How the data were processed

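Drop-seq reads had been processed by the authors with Drop-seq tools v1.12 and STAR against mm10 and GENCODE vM7, with the Cre and EYFP sequences added, and the deposited values are UMI counts per gene and barcode above the knee, not normalized and not filtered. Antibody counts were made by the authors with CITEseq-count v1.2; whether they are UMIs or reads is not stated. Genes are named by symbol. Bulk RNA and a table of cells were not used here.

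The members and gene lists were chosen with earlier results of these data known. Glands held 606 to 1209 kept barcodes and 777537 to 7013325 UMIs. Members' UMIs were summed per gland (at least 10 members). The genes of the rule were removed, genes were filtered with filterByExpr, and edgeR 4.0.16 fitted genotype, sex and stage with TMM normalization and Benjamini-Hochberg adjustment. Levels are UMIs per 10000. Interactions with stage and with the other cells of each gland were fitted in the same way. DESeq2 1.42.0 was an alternative, as were other filters, batch, depth and each gland left out. Shares were compared with permutation tests (numpy 2.4.6) and lme4 1.1.37, and binomial intervals came from scipy 1.17.1. The fits were tested on simulated data. Named genes were those with an adjusted p under 0.05 and at least 0.5 UMIs per 10000, at most 12 in each direction (5 for the interactions), and the 4 of each list with the smallest p; Smoc2, Sgk1 and Klk1b26, the leading genes and the genes of the side-by-side comparison were named after their values were seen. Promoters came from RefSeq (GRCm38.p6).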

Additional observations from a re-analysis of the deposited data

Results flagged for a closer look

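Single glands stood apart from the rest of their genotype in 8 of 28 groups of glands examined with Dixon's test. The nominal rate of about 1 in 20 holds for normally distributed values. Some groups rested on few UMIs, such as Ren1 in double-mutant members, at 0 in every gland but 1. The 8 therefore cannot be read as an excess over that rate. Ly6a in control members was highest in P40 replicate 1 at 1.96 UMIs per 10000. Timp3 was highest in double-mutant P90 replicate 5 at 35.8 and, among control glands, in P40 replicate 6 at 1.37. Ren1 was highest in double-mutant P40 replicate 3 at 0.703 and in control P90 replicate 6 at 7.30. Hbb-bs was highest in double-mutant P90 replicate 5 at 3.07 and in control P90 replicate 2 at 232. Klk1 was highest in control P90 replicate 6 at 448.

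Differences between groups of glands passed a test of the difference itself in 3 cases. The genotype difference of a was lower at P90 than at P40 by -4.91 and that of Klk1 by -8.78 on the log2 scale. The female excess in the share of these cells was larger in control than in double-mutant glands by 1.49 percentage points, and by 0.310 points (p = 0.467, permutation test) when cells were thinned to equal depth.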

How the results depend on the processing

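The 4 genes called between genotypes became 18 with DESeq2 (14 higher, 4 lower), 22 without the filter on low counts (11 and 11), 2 with the number of members as a term, 0 with batch as a term, 8 with at least 5 members per gland, 0 in members thinned to 500 UMIs or with at least 1000 UMIs, 21 with the excluded genes kept, 8 without members holding other cells' UMIs, 0 in P40 and 8 in P90 glands, 1 without the 2 libraries against their sex label and 8 in female glands. With the same 377 genes tested, alternatives added after seeing the data gave 5 without those 2 libraries, 11 in P90 glands, 0 with at least 1000 UMIs and 2 when thinned. The setting without other cells' UMIs left out members with at least 2 UMIs of immune, endothelial or fibroblast markers, decorin included. It took out 73 of 143 control and 39 of 163 double-mutant members. Leaving out a gland gave 2 to 13 (9 and 13 without control P40 replicates 1 and 2, 11 and 2 without double-mutant P40 replicates 4 and 6). Over the alternatives in which each was tested, Ly6a passed in 28 of 32 and Timp3 in 19 of 23. Fxyd3 passed in 26 of 36 and Ly6d in 15 of 37, and all values were positive. Fits in which a gene did not pass the filter on low counts are left out of these numbers, so they cannot be ranked against each other. In the main fit Ly6a and Timp3 passed that filter through double-mutant glands only. Of the 15 fits that left out a gland, Timp3 was tested in 9 and called in each. Ly6d lost its call in 9 of 15.

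The interaction with stage (2 genes) gave 14 without the filter and 0 without the 2 libraries. Stage (0 genes) gave 19 with DESeq2, 1 with RLE factors, 24 without the filter and 2 without the 2 libraries, and sex (0 genes) 11 without the filter and 1 without the 2 libraries. The comparison with the other cells (15 genes) gave 3 with DESeq2 and 8 to 43 with a gland left out (9 without control P90 replicate 6, 8 without double-mutant P90 replicate 4, 37 and 43 without double-mutant P40 replicates 1 and 3), and Hbb-bs ranged from -7.85 to 0.99, the last without control P90 replicate 2.

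The difference in share (-0.0105 points) turned to 0.341 when thinned, 0.964 with the excluded genes kept, 0.504 of epithelial cells, 0.366 at P40, 0.156 within batches and a log odds of 0.138 in the mixed model; with a gland left out it ranged from -0.117 to 0.191. The female excess in control glands was 1.35 points within batches (exact permutation p = 0.0833) and 1.34 to 1.89 with a gland left out.

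Same-numbered replicates did not vary together (14 pairs, r from -0.155 to 0.528, median -0.0173; 4 of 15 glands correlated best with their own number). With the replicate block, 4 genes were called, the interaction of a had an adjusted p of 0.0941 (edgeR), and the share difference a permutation p of 0.974. At least 20 members per gland could not be fitted. Depth limits the gene tests: a double-mutant P90 gland held 6350 to 11418 member UMIs.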
